A study of Homo sapiens with 14 samples.

Results

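The glycolysis and glucose transport genes described here are 33 of the 55075 genes in 6 deposited RNA sequencing tables. They were chosen by symbol, as the transporters of glucose and lactate, the enzymes of glycolysis, the lactate and pyruvate dehydrogenases with their kinases, and enzymes of glycogen synthesis. All 33 had a row in every table. The cells were CUTLL1 and CEM, established human T cell acute lymphoblastic leukemia lines that grew in suspension in RPMI. They carried a retroviral short hairpin against the histone H3K27 demethylase JMJD3 (gene KDM6B), against the related demethylase UTX (gene KDM6A), or against Renilla luciferase, a gene that human cells lack. For CUTLL1 the samples were 3 for shJMJD3, 2 for shUTX and 3 for shRenilla, and for CEM 2 for each hairpin. The authors' tables give 1 pooled count per gene, hairpin and line. There was therefore no replicate check within a line, and intervals below cover counting error only. Values are from bulk RNA, so a difference in some of the cells and one in every cell cannot be told apart. The sources used here do not say how many hairpin sequences were used per target. Reads without molecular identifiers are not independent molecules.

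Column totals lay between 70280185 counts for shJMJD3 in CEM and 258014046 for a CUTLL1 control column. The CUTLL1 shRenilla control came in a larger column, which the authors paired with shJMJD3, and a smaller one of 144394369 counts, which they paired with shUTX. Subtraction of the smaller from the larger left a remainder of 113619677 counts. Small non-coding RNAs took 11.7% of counts in CUTLL1 with shJMJD3, 2.58% with shUTX, 9.33% in the larger control, 1.97% in the smaller and 18.7% in the remainder, and at most 0.0486% in CEM. All 7 T cell markers had counts in every column, with a sum of 2876 CPM with shRenilla in CEM. Of 5 B cell markers, 4 had counts in each CEM column and 3 in each CUTLL1 column, while MS4A1 was at 0 throughout. The B cell markers together had 83.3 CPM with shRenilla and 47.6 with shJMJD3 in CEM, and at most 4.14 in CUTLL1. KDM6B, the gene targeted by shJMJD3, had a log2 ratio to shRenilla of -1.71 in CEM and -0.64 in CUTLL1. KDM6A, the gene targeted by shUTX, had a log2 ratio of -1.36 in CEM and -1.13 in CUTLL1 with that hairpin.

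Glycolysis splits glucose into pyruvate in the cytosol and yields ATP without oxygen. Pyruvate is then either reduced to lactate by lactate dehydrogenase and exported, or oxidised in mitochondria by the pyruvate dehydrogenase complex, which PDK kinases switch off. Proliferating T cells and T cell leukemias are known for high glucose uptake and lactate release, and many of these genes are known targets of the hypoxia-inducible factor HIF1A and of MYC.

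In CEM most members were much higher with shJMJD3 than with shRenilla. The 33 genes held 2.49% of all counts with shJMJD3, 0.520% with shUTX and 0.455% with shRenilla. Of 33 members with at least 50 counts in either column, 25 were at least 1.5-fold higher, where 21.0% of all measured genes were, and 1 was lower, where 25.3% were. At least 2-fold higher were 23, where 11.3% of all measured genes were. The median log2 ratio of the members was 2.50, against -0.06 over all 16998 measured genes. Ratios are scaled by TMM, while levels are in CPM, counts scaled to the column total, and a small difference can change direction between the 2 scales.

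In CUTLL1 the same comparison gave much smaller ratios. Of 32 measured members 6 were at least 1.5-fold higher, against 8.37% of all measured genes, and 1 was lower, against 7.52%. The members' median was 0.33, against -0.01 over all genes. The members held 1.29% of counts with shJMJD3, 1.64% with shUTX, 1.09% in the larger control and 1.19% in the smaller. Of protein-coding counts alone they held 1.93%, 2.08%, 1.51% and 1.46% in the same columns, so the order of the controls depends on the scale. The 6 higher genes, ALDOC, GBE1, GPI, PDK1, PGK1 and SLC2A3, were all among those higher in CEM, and PFKFB2 was lower in both lines. Higher in both lines were 6 of 32 members and 2.41% of all genes measured in both, and lower in both were 1 of 32 and 2.67%. Set against the smaller control column 4 members were higher, against 19.0% of all measured genes, and 1 was lower, against 5.00%, with a median of 0.09 against -0.01 over all genes. Set against the remainder 17 were higher, against 21.2% of all measured genes, and 3 were lower, against 18.1%, with a median of 0.61 against 0.10 over all genes. PDK2 had at most 4 counts in each CUTLL1 column and was not measured there.

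**Figure D1:**
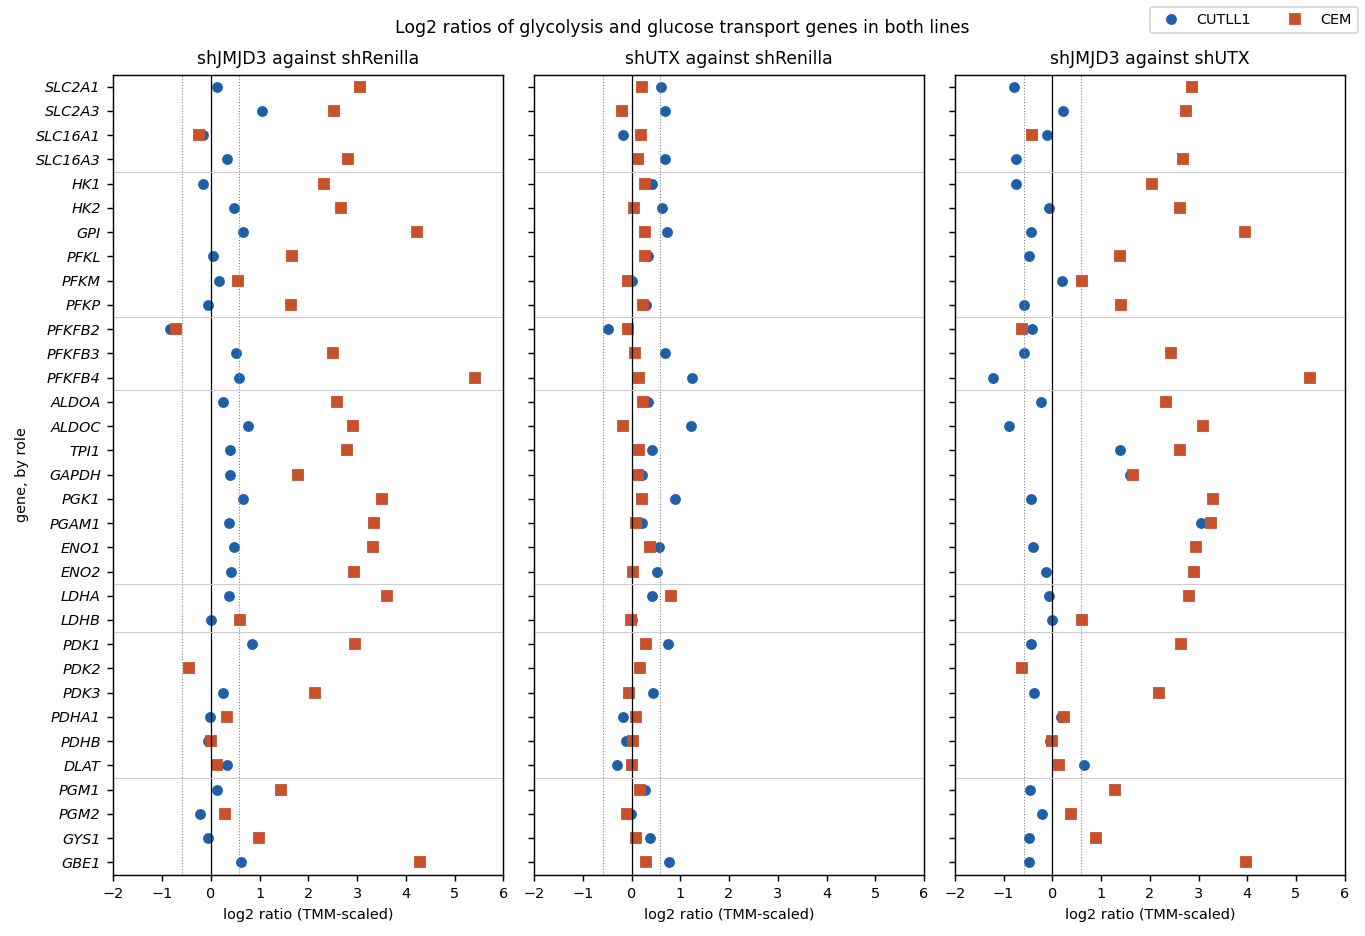
Log2 ratios (x axis, TMM-scaled) of the 33 genes, ordered by role down the page, for 3 comparisons; circles are CUTLL1, squares are CEM, and dotted lines mark 1.5-fold. With shJMJD3 against shRenilla the CEM points reach 5.42 while those of CUTLL1 end at 1.05, and with shUTX against shRenilla only LDHA passes 1.5-fold in CEM.

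RefSeq promoter sequences, matched by symbol, were at hand for 30 of the 33 members. The 250 bases before the annotated start were searched on both strands for ACGTG and GCGTG, the core letters that hypoxia-inducible factors bind, and for CACGTG, an E-box that overlaps ACGTG. At least 1 ACGTG or GCGTG stood in 19 of 30 members (63.3%), against 43.2% of all 35116 promoters. CACGTG stood in 5 of 30 members (16.7%), against 6.34% of all promoters. All promoters means every window, not limited to protein-coding or measured genes and not matched to the members for base content. The part of this in the differences was not tested. Among members at least 2-fold higher with shJMJD3 in CEM 14 of 22 held ACGTG or GCGTG, and among the others 5 of 8 did. At least 2 matches stood in 8 of those 22 and in 5 of those 8. A CACGTG reads as ACGTG on either strand and so counts as 2 matches. The promoters of 6 members are shown, chosen by their CEM ratio or their number of matches. They are PFKFB4 and GPI, with high ratios, LDHA and LDHB, whose ratios differed, PDK1, with no match, and PDHB, with the most. Capitals mark ACGTG and GCGTG on either strand, and positions are on GRCh38.p14. The PFKFB4 window is chr3:48556804-48557053 (minus strand), that of GPI chr19:34364742-34364991 (plus strand), that of LDHA chr11:18394313-18394562 (plus strand), that of LDHB chr12:21657843-21658092 (minus strand), that of PDK1 chr2:172555123-172555372 (plus strand) and that of PDHB chr3:58433833-58434082 (minus strand).
PFKFB4: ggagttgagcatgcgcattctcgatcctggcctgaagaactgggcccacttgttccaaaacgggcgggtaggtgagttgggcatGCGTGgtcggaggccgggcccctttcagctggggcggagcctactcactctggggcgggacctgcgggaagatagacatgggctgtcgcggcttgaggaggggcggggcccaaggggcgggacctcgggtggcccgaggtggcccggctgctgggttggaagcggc
GPI: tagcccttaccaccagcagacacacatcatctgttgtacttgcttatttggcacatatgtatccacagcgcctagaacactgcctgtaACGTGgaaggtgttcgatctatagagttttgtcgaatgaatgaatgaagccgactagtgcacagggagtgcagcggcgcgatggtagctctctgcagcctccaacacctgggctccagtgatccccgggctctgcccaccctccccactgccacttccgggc
LDHA: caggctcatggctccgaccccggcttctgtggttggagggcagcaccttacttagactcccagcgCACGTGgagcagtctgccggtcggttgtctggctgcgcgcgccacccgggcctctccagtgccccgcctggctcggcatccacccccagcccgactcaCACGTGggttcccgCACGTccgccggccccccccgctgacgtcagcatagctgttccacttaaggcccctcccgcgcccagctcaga
LDHB: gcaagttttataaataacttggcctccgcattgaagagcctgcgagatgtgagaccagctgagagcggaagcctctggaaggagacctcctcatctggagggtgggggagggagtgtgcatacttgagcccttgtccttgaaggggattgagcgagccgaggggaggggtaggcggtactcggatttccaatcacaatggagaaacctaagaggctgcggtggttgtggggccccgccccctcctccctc
PDK1: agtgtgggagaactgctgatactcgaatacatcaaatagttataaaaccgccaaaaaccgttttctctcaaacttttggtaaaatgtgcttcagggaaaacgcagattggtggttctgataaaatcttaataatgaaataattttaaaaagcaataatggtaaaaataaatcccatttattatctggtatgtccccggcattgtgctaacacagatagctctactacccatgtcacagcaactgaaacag
PDHB: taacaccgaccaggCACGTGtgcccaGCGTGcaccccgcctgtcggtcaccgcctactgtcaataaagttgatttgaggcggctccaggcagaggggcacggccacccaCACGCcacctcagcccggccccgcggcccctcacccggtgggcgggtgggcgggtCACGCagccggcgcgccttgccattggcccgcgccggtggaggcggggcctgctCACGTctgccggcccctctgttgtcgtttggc
The LDHA window holds 5 matches in 3 marked stretches and that of LDHB none. PDK1, with a log2 ratio of 2.95 in CEM, has no match, while PDHB, with a ratio of 0.00, has 6 in 5 stretches. The 11 windows with no match were those of HK1, LDHB, PDK1, PDK2, PFKM, PFKP, PGAM1, PGM1, SLC16A3, SLC2A1 and TPI1. Each member was read in 1 window, so other starts and sequence farther away were not searched. A match is a description of letters, and no binding was measured.

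Glucose enters through SLC2A1 (GLUT1) and SLC2A3 (GLUT3). SLC2A1 had 453 CPM with shJMJD3, 73.4 with shUTX and 65.1 with shRenilla in CEM. In CUTLL1 SLC2A1 had 91.3 CPM with shJMJD3, 198 with shUTX, 92.9 in the larger control and 133 in the smaller. The CEM shJMJD3 value stood far above both other CEM values, with a log2 ratio to shRenilla of 3.07 (95% interval 3.03 to 3.11), while in CUTLL1 shJMJD3 lay near the larger control. SLC2A3 had 121 CPM with shJMJD3, 21.3 with shUTX and 25.3 with shRenilla in CEM. In CUTLL1 SLC2A3 had 30.0 CPM with shJMJD3, 32.4 with shUTX, 15.9 in the larger control and 20.7 in the smaller. It was higher with shJMJD3 than in each control column of its line, at 2.53 in CEM and 1.05 in CUTLL1, and was the member with the highest ratio in CUTLL1. Its near-identical copy SLC2A14 had at most 0.746 CPM in any column. The SLC2A3 pseudogene had 22.7 CPM with shJMJD3, 27.4 with shUTX and 29.6 with shRenilla in CEM. In CUTLL1 the pseudogene had 19.2 CPM with shJMJD3, 26.8 with shUTX, 22.6 in the larger control and 26.7 in the smaller. Reads that SLC2A3 shares with these copies are uncertain.

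Lactate leaves through the monocarboxylate transporters SLC16A3 (MCT4) and SLC16A1 (MCT1). SLC16A3 had 130.3 CPM with shJMJD3, 23.9 with shUTX and 22.3 with shRenilla in CEM. In CUTLL1 SLC16A3 had 19.0 CPM with shJMJD3, 40.3 with shUTX, 16.7 in the larger control and 25.8 in the smaller. The transporter was thus higher with shJMJD3 in CEM, with a log2 ratio of 2.81, and highest with shUTX in CUTLL1. SLC16A1 had ratios of -0.24 in CEM and -0.16 in CUTLL1, so only 1 of these 2 exporters stood higher with shJMJD3 in CEM.

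Hexokinase traps glucose as its phosphate, and GPI turns that into fructose phosphate. HK1 had 405 CPM with shJMJD3, 116 with shUTX and 97.6 with shRenilla in CEM. In CUTLL1 HK1 had 221 CPM with shJMJD3, 466 with shUTX, 271 in the larger control and 356 in the smaller. With shJMJD3 it was the highest of the CEM columns (2.33) and the lowest of these CUTLL1 columns (-0.15). HK2, the inducible hexokinase, had 134 CPM with shJMJD3, 25.5 with shUTX and 25.2 with shRenilla in CEM. In CUTLL1 HK2 had 23.7 CPM with shJMJD3, 31.5 with shUTX, 18.8 in the larger control and 20.9 in the smaller. Its CEM log2 ratio was 2.68, and the ratio in CUTLL1 was 0.47. GPI had 3644 CPM with shJMJD3, 279 with shUTX and 235 with shRenilla in CEM. In CUTLL1 GPI had 1114 CPM with shJMJD3, 1901 with shUTX, 778 in the larger control and 1177 in the smaller. This isomerase had the third highest ratio of all members in CEM (4.22, interval 4.20 to 4.24) and one of 0.66 in CUTLL1, where shJMJD3 lay between both control columns in CPM but above the smaller by 0.28 on the log2 scale after TMM over 4 CUTLL1 columns.

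Phosphofructokinase commits the sugar to glycolysis, and its liver, muscle and platelet subunits are PFKL, PFKM and PFKP. PFKL had 178 CPM with shJMJD3, 79.5 with shUTX and 67.4 with shRenilla in CEM. In CUTLL1 PFKL had 107 CPM with shJMJD3, 188 with shUTX, 114 in the larger control and 153 in the smaller. PFKL was higher with shJMJD3 in CEM, at 1.67, and lay at 0.05 in CUTLL1. PFKP had 342 CPM with shJMJD3, 152 with shUTX and 133 with shRenilla in CEM. In CUTLL1 PFKP had 193 CPM with shJMJD3, 363 with shUTX, 221 in the larger control and 302 in the smaller. Its ratios, 1.64 in CEM and -0.05 in CUTLL1, were close to those of PFKL, whereas PFKM stood at 0.55 and 0.17.

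The bifunctional PFKFB enzymes set the level of the sugar bisphosphate that activates phosphofructokinase, and this small family held both the highest and the lowest ratio of all members in CEM. PFKFB4 had 151 CPM with shJMJD3, 4.53 with shUTX and 4.21 with shRenilla in CEM. In CUTLL1 PFKFB4 had 45.7 CPM with shJMJD3, 133 with shUTX, 33.7 in the larger control and 57.7 in the smaller. It was higher with shJMJD3 in CEM by a log2 ratio of 5.42 (interval 5.29 to 5.57), while its highest CUTLL1 value was with shUTX. PFKFB3 had 313 CPM with shJMJD3, 68.1 with shUTX and 66.7 with shRenilla in CEM. In CUTLL1 PFKFB3 had 82.5 CPM with shJMJD3, 156 with shUTX, 63.5 in the larger control and 100.04 in the smaller. The order of its columns was the same as for PFKFB4 in CUTLL1, with ratios for shJMJD3 of 2.50 in CEM and 0.52 in CUTLL1. PFKFB2 had 4.31 CPM with shJMJD3, 7.84 with shUTX and 8.50 with shRenilla in CEM. In CUTLL1 PFKFB2 had 21.7 CPM with shJMJD3, 36.5 with shUTX, 42.9 in the larger control and 52.5 in the smaller. It went the other way, with shJMJD3 the lowest value of each line and ratios of -0.71 in CEM (interval -0.90 to -0.52) and -0.84 in CUTLL1 (-0.89 to -0.79).

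All 8 members from aldolase to enolase were at least 2-fold higher with shJMJD3 in CEM, with log2 ratios from 1.79 to 3.50. ALDOA, the main aldolase of muscle and blood cells, had 2965 CPM with shJMJD3, 689.9 with shUTX and 598 with shRenilla in CEM. In CUTLL1 ALDOA had 1436 CPM with shJMJD3, 2124 with shUTX, 1335 in the larger control and 1720.1 in the smaller. The CEM ratio was 2.58 and that in CUTLL1 0.25. ALDOC, the aldolase best known from brain, had 20.5 CPM with shJMJD3, 2.82 with shUTX and 3.27 with shRenilla in CEM. In CUTLL1 ALDOC had 148 CPM with shJMJD3, 345 with shUTX, 95.4 in the larger control and 152 in the smaller. It was higher with shJMJD3 in both lines, at 2.91 in CEM and 0.77 against the larger CUTLL1 control, while against the smaller it lay just under in CPM and 0.32 above after TMM over 4 CUTLL1 columns. PGK1, which makes ATP from bisphosphoglycerate, had 2085 CPM with shJMJD3, 250.1 with shUTX and 222 with shRenilla in CEM. In CUTLL1 PGK1 had 978 CPM with shJMJD3, 1675 with shUTX, 682 in the larger control and 925 in the smaller. With shJMJD3 PGK1 exceeded the control columns of its line, with ratios of 3.50 in CEM and 0.66 in CUTLL1.

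Enolase makes phosphoenolpyruvate. ENO1, the widespread form, had 7635 CPM with shJMJD3, 1157 with shUTX and 912 with shRenilla in CEM. In CUTLL1 ENO1 had 2622 CPM with shJMJD3, 4368 with shUTX, 2094 in the larger control and 3014 in the smaller. Its ratio with shJMJD3 was 3.34 in CEM and 0.47 in CUTLL1, where shUTX was highest. ENO2, known as the neuronal form, had 624 CPM with shJMJD3, 98.0 with shUTX and 98.4 with shRenilla in CEM. In CUTLL1 ENO2 had 140.4 CPM with shJMJD3, 192 with shUTX, 116 in the larger control and 137 in the smaller. The highest CUTLL1 value of ENO2 was with shUTX as well, and its ratios with shJMJD3 were 2.94 and 0.42 in the same order of lines.

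TPI1, GAPDH and PGAM1, enzymes of the middle and lower steps, behaved unlike the other members in CUTLL1. GAPDH, the triose phosphate dehydrogenase often used as a reference transcript, had 2076 CPM with shJMJD3, 775 with shUTX and 722 with shRenilla in CEM. In CUTLL1 GAPDH had 3034 CPM with shJMJD3, 1269 with shUTX, 2533 in the larger control and 1123 in the smaller. The shJMJD3 and larger control columns were high in CUTLL1, and the shUTX and smaller control columns low. TPI1, the triose phosphate isomerase, had 264 CPM with shJMJD3, 50.3 with shUTX and 46.3 with shRenilla in CEM. In CUTLL1 TPI1 had 539 CPM with shJMJD3, 258 with shUTX, 453 in the larger control and 196 in the smaller. The same split held for TPI1, whose CEM ratio with shJMJD3 was 2.78. PGAM1, the phosphoglycerate mutase, had 37.1 CPM with shJMJD3, 4.56 with shUTX and 4.39 with shRenilla in CEM. In CUTLL1 PGAM1 had 135 CPM with shJMJD3, 20.6 with shUTX, 114 in the larger control and 18.1 in the smaller. It showed the widest split of the 3, and its CEM ratio was 3.34, beside 1.79 for GAPDH.

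Copies of these 3 genes followed a like order in CUTLL1, as did those of some other members. The 57 genes named as GAPDH pseudogenes together had 39.3 CPM with shJMJD3, 7.61 with shUTX, 33.3 in the larger control and 6.77 in the smaller. The 4 TPI1 pseudogenes together had 27.3, 6.30, 22.9 and 4.61 CPM in the same columns. PGAM4, a near-identical copy of PGAM1, had 22.4 CPM with shJMJD3, 0.00982 with shUTX, 20.3 in the larger control and 0.0208 in the smaller, and at most 0.0711 in CEM. The 13 PGAM1 pseudogenes together had 2.16 CPM with shJMJD3, 0.481 with shUTX, 2.38 in the larger control and 0.699 in the smaller. The 6 LDHA pseudogenes together had 4.66, 1.89, 4.67 and 2.11 CPM in the same columns, although LDHA itself did not show that split. Copies of ALDOA and LDHB, with at most 26 counts in any column, were split likewise, and the pseudogenes of ENO1, HK2 and SLC2A3 were not. SLC2A14, the other copy of SLC2A3, was split too. It had 130 counts with shJMJD3, 1 with shUTX, 66 in the larger control and 1 in the smaller. The columns with high values were those with a larger share of small RNAs. The part of shared reads or of the RNA makeup in the CUTLL1 values of GAPDH, TPI1 and PGAM1 was not tested, and counts of these genes are uncertain.

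Lactate dehydrogenase is a tetramer of LDHA and LDHB subunits, of which LDHA is known to favour lactate formation. LDHA had 1535 CPM with shJMJD3, 259 with shUTX and 151 with shRenilla in CEM. In CUTLL1 LDHA had 737 CPM with shJMJD3, 972 with shUTX, 627 in the larger control and 744 in the smaller. Both hairpins lay above the control in CEM, with log2 ratios of 3.61 (interval 3.59 to 3.64) for shJMJD3 and 0.81 (0.78 to 0.84) for shUTX. LDHB had 414 CPM with shJMJD3, 319.6 with shUTX and 330.5 with shRenilla in CEM. In CUTLL1 LDHB had 303 CPM with shJMJD3, 381 with shUTX, 334 in the larger control and 387 in the smaller. LDHB had ratios of 0.59 with shJMJD3 and -0.01 with shUTX in CEM, so the subunits differed in their response.

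Entry of pyruvate into mitochondrial oxidation is held back by the PDK kinases. PDK1 had 198 CPM with shJMJD3, 37.2 with shUTX and 30.9 with shRenilla in CEM. In CUTLL1 PDK1 had 114 CPM with shJMJD3, 195 with shUTX, 69.8 in the larger control and 118 in the smaller. The kinase was higher with shJMJD3 by 2.95 on the log2 scale in CEM and by 0.85 in CUTLL1, where it lay just under the smaller control in CPM and 0.31 above it after TMM over 4 CUTLL1 columns. PDK3 had 37.5 CPM with shJMJD3, 9.71 with shUTX and 10.3 with shRenilla in CEM. In CUTLL1 PDK3 had 27.2 CPM with shJMJD3, 44.6 with shUTX, 25.2 in the larger control and 33.5 in the smaller. PDK3 too stood above the other CEM columns with shJMJD3 (2.13), while PDK2 had a CEM ratio of -0.45. PDHA1, the catalytic subunit of pyruvate dehydrogenase that the kinases phosphorylate, had 71.4 CPM with shJMJD3, 70.9 with shUTX and 68.7 with shRenilla in CEM. In CUTLL1 PDHA1 had 54.2 CPM with shJMJD3, 60.8 with shUTX, 60.7 in the larger control and 70.7 in the smaller. Its values were close to each other in both lines, as were those of the partner subunit PDHB (0.00 in CEM, -0.05 in CUTLL1) and of DLAT, the acetyl transferase of the complex (0.13 and 0.33).

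Of the enzymes that lead glucose into glycogen, GBE1, which adds the branches, had the second highest CEM ratio of all members. GBE1 had 441 CPM with shJMJD3, 32.8 with shUTX and 27.3 with shRenilla in CEM. In CUTLL1 GBE1 had 189 CPM with shJMJD3, 333 with shUTX, 135 in the larger control and 199 in the smaller. The CEM log2 ratio with shJMJD3 was 4.28 (interval 4.23 to 4.34), against 0.62 in CUTLL1. PGM1, which interconverts glucose phosphates, had 158 CPM with shJMJD3, 76.5 with shUTX and 69.8 with shRenilla in CEM. In CUTLL1 PGM1 had 63.9 CPM with shJMJD3, 111 with shUTX, 64.3 in the larger control and 93.6 in the smaller. PGM1 was higher in CEM (1.45), as was the glycogen synthase GYS1 (0.99), while PGM2 lay at 0.28.

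**Figure D2:**
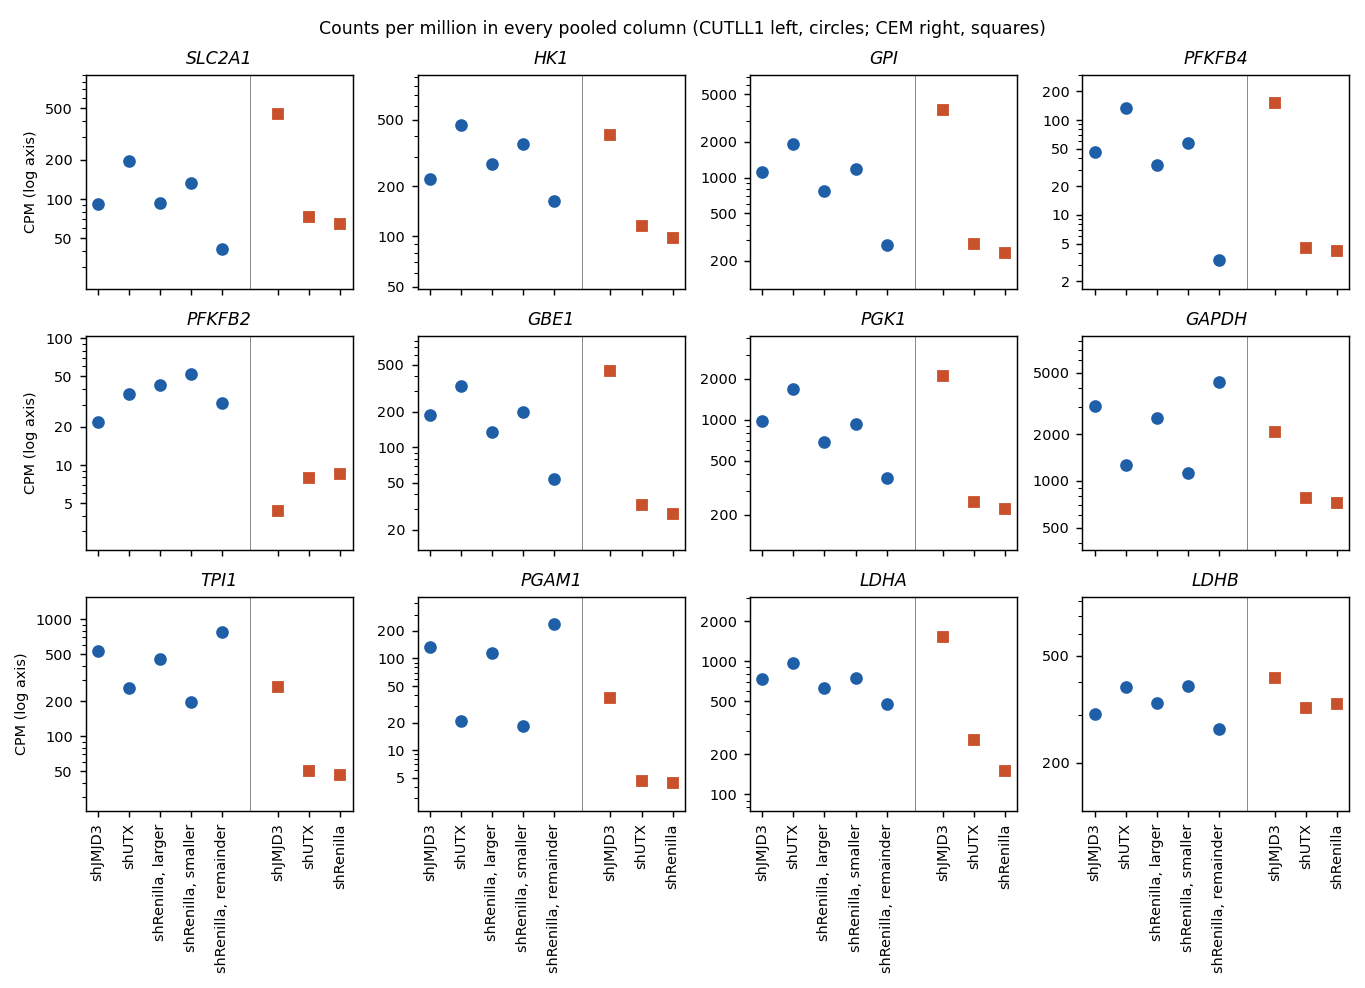
CPM of 12 members on log axes, 1 panel a gene, with 1 point for each pooled column (5 in CUTLL1, circles; 3 in CEM, squares; no error bars, since each column is 1 value). In CEM shJMJD3 is the highest column for every gene shown except PFKFB2, and in CUTLL1 GAPDH, TPI1 and PGAM1 run opposite to SLC2A1, HK1, GPI and PFKFB4 across the control parts.

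The ratio of 2 genes within a column does not depend on the total or makeup scaling of that column, so the balance between paired enzymes was compared directly. The log2 ratio of LDHA to LDHB counts was higher by 3.02 with shJMJD3 than with shRenilla in CEM and by 0.82 with shUTX. In CUTLL1 it was higher by 0.37, 0.34 and 0.44 with shJMJD3 and by 0.44, 0.41 and 0.51 with shUTX against the larger, smaller and remainder control. The LDHA balance was therefore higher with both hairpins in both lines whichever control was used. The same held for PFKFB4 and PFKFB3 to PFKFB2, PDK1 to PDHA1, PDK1 to PDK3 and PGM1 to PGM2. The larger control holds the smaller and the remainder, so these controls are not independent. For LDHA to LDHB the parts of the control differed by -0.10, remainder minus smaller. PFKFB4 to PFKFB2 was higher by 6.14 in CEM with shJMJD3, and by 1.42 in CUTLL1 against the larger control. The parts of that control differed by -3.32 for this pair. The export pair SLC16A3 to SLC16A1 was higher by 3.05 in CEM and 0.49 in CUTLL1 with shJMJD3, and PDK1 to PDHA1 by 2.62 and 0.87. The parts of the CUTLL1 control differed by -1.39 and -3.19 for these pairs. PFKP to PFKL hardly differed from shRenilla in either line with shJMJD3, at -0.04 in CEM and -0.10 in CUTLL1.

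**Figure D3:**
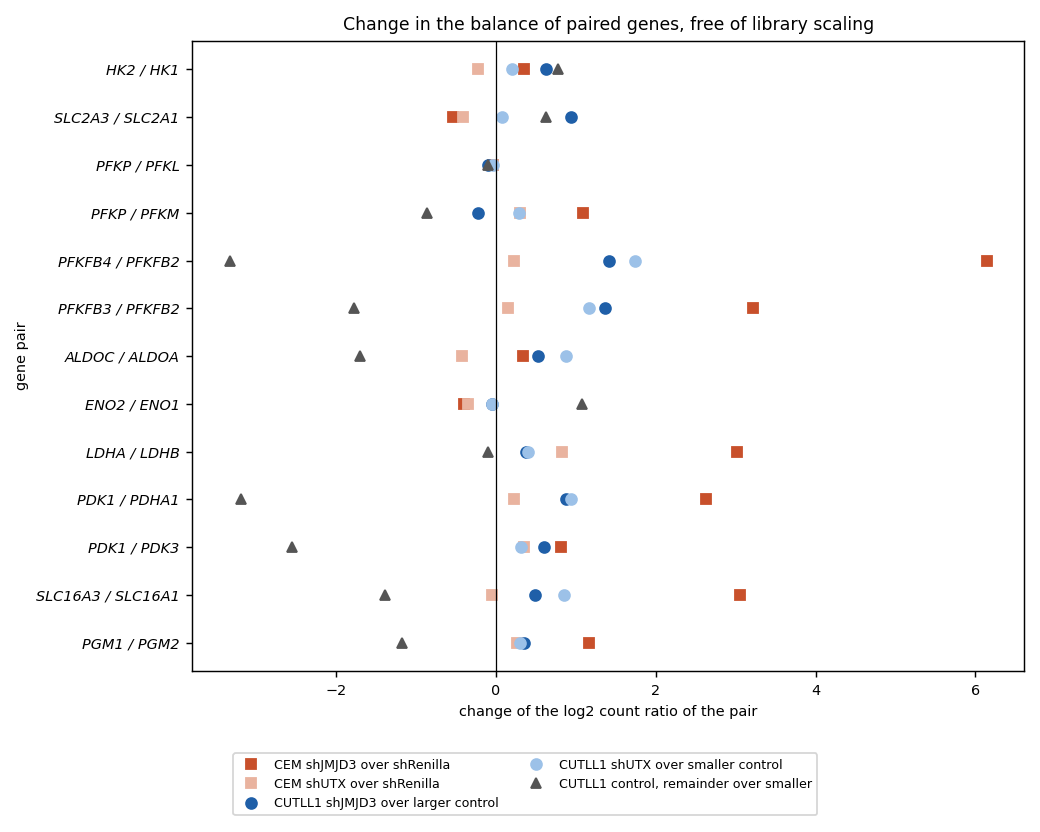
Change of the log2 count ratio of 13 gene pairs (x axis) for each hairpin against its control, with squares for CEM, circles for CUTLL1 and triangles for the parts of the CUTLL1 control. LDHA over LDHB and PFKFB4 over PFKFB2 both lie above 0 for all 4 hairpin comparisons. The control parts lie at -0.10 for the LDHA pair and at -3.32 for the PFKFB4 pair.

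More members, and more of all genes, differed between the 2 parts of the CUTLL1 control than between shJMJD3 and the larger control column. Against the larger column, which holds both parts, 8.37% of all measured genes were at least 1.5-fold higher with shJMJD3 and 7.52% lower. In the remainder, set against the smaller column, 17 of 32 members were at least 1.5-fold lower, against 22.7% of all measured genes, and 3 were higher, against 20.3%. The members' median log2 ratio was -0.61, against -0.16 over all genes. PFKFB4 had 3.36 CPM in the remainder and 57.7 in the smaller column, a log2 ratio of -3.66 (interval -3.81 to -3.51). PDK1 had 8.77 CPM in the remainder and 118 in the smaller column, a ratio of -3.31. Both genes were thus low in the remainder, and ALDOC (-2.28), PFKFB3 (-2.12), SLC16A3 (-1.88), GPI (-1.69) and GBE1 (-1.43) were lower there too. The 3 members higher in the remainder were PGAM1 (4.14), TPI1 (2.43) and GAPDH (2.38). LDHA (-0.20) and LDHB (-0.10) differed little.

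With both parts as bounds, shJMJD3 stood at least 1.5-fold above each for 1 of 32 members, SLC2A3, against 3.25% of all measured genes, and below each for 0, against 1.88%. It lay above both parts by any margin for 17 members, against 25.7% of all genes. With shUTX 10 of 32 members lay at least 1.5-fold above both parts, against 1.98% of all genes. They were ALDOC, GBE1, GPI, PDK1, PFKFB3, PFKFB4, PGK1, SLC16A3, SLC2A1 and SLC2A3. At least 1.5-fold below both parts lay 0 members with shUTX, against 2.22% of all genes. The sources used here do not say which libraries make up each part, and the difference between hairpin and library in CUTLL1 cannot be told apart.

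**Figure D4:**
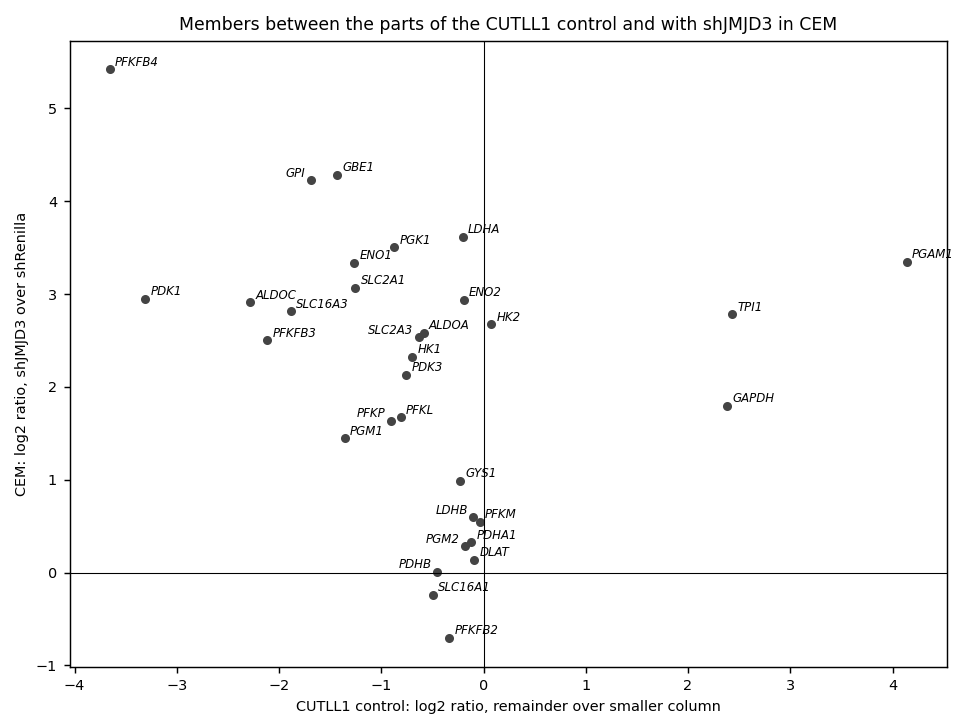
Each point is 1 of 32 members, with its log2 ratio of the remainder over the smaller CUTLL1 control (x axis) and with shJMJD3 against shRenilla in CEM (y axis). PFKFB4, high in CEM at 5.42, lies at -3.66 between the control parts, and PGAM1, TPI1 and GAPDH lie on the far side at 4.14, 2.43 and 2.38.

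The members that led in CEM with shJMJD3 also tended to lead elsewhere. Across the 32 members, the CEM ratios with shJMJD3 and the CUTLL1 ratios with shUTX, which share no column, had a Pearson correlation of 0.88 and a Spearman correlation of 0.83. With the CUTLL1 ratios for shJMJD3 the values were 0.73 and 0.74. With the ratios between the CUTLL1 control parts they were -0.27 and -0.42, and -0.62 and -0.58 over the 29 members other than GAPDH, TPI1 and PGAM1, a choice made after the values were seen. These describe genes within single pooled columns, and genes are not independent replicates.

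For shUTX against shRenilla, the CEM ratios were small. LDHA was the 1 of 33 members at least 1.5-fold higher, against 3.33% of all measured genes, and 0 were lower, against 4.02%. The members' median was 0.14, against 0.00 over all genes, and the other ratios lay between -0.21 for SLC2A3 and 0.38 for ENO1. In CUTLL1 11 of 32 members were at least 1.5-fold higher, against 3.38% of all measured genes, and 0 were lower, against 2.35%. The median there was 0.42, against -0.02 over all genes. PFKFB4 (1.24) and ALDOC (1.21) were the 2 of 32 members at least 2-fold higher, against 0.657% of all genes. PGK1 (0.89), GBE1 (0.77), PDK1 (0.76), GPI (0.72), SLC2A3 (0.68), SLC16A3 (0.67), PFKFB3 (0.67), HK2 (0.62) and SLC2A1 (0.60) followed. Set against the larger control column 14 members were higher, against 6.26% of all measured genes, and 3 were lower, against 18.3%, the lower ones being PGAM1 (-2.64), GAPDH (-1.17) and TPI1 (-0.99). None of the 32 members passed 1.5-fold in the same direction in both lines with shUTX, where 0.376% of all genes were higher in both and 0.158% lower in both.

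Set directly against shUTX, shJMJD3 gave opposite directions in the lines for several members. In CEM 26 of 33 members were at least 1.5-fold higher with shJMJD3, against 21.9% of all measured genes, and 2 were lower, against 23.8%. The lower ones were PFKFB2 (-0.62) and PDK2 (-0.62). The CEM median was 2.34, against -0.03 over all genes. In CUTLL1 4 of 32 members were higher, against 19.4% of all measured genes, and 6 were lower, against 6.20%, with a median of -0.39 against 0.02 over all genes. The higher ones were PGAM1 (3.04), GAPDH (1.59), TPI1 (1.40) and DLAT (0.65). The 6 lower ones, ALDOC, HK1, PFKFB3, PFKFB4, SLC16A3 and SLC2A1, were all higher in CEM, a pattern found in 1.32% of all genes measured in both lines. GAPDH, PGAM1 and TPI1 were higher in both lines, as were 3.90% of all genes. With column totals as the scaling, 3 members were higher in CUTLL1, against 15.3% of all measured genes, and 17 were lower, against 21.3%. The members' median was then -0.72, against -0.31 over all genes. These comparisons share the shJMJD3 and shUTX columns with those above. ALDOC, HK1, PFKFB3, PFKFB4, SLC16A3 and SLC2A1 each had their highest CUTLL1 CPM with shUTX. Against shRenilla instead, shJMJD3 gave 0 of 32 members at least 1.5-fold lower in CUTLL1 and higher in CEM, where 89 of 15882 genes were.

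With both lines as the replicates, edgeR's quasi-likelihood test called no member in any of the 3 comparisons. For shJMJD3 against shRenilla it called 0 of 24003 genes at an adjusted p under 0.05, with 936 at an unadjusted p under 0.05, and DESeq2 called 110. The members' median log2 ratio across lines was 1.64, and 3 members were higher and 1 lower at an unadjusted p under 0.05, among 33 tested. Without the filter on low counts 16 members were higher at that level, where 1371 of 40694 genes reached it in either direction. In DESeq2 19 members were higher, where 1610 genes reached it and 20970 had an adjusted p. SLC2A3 had a log2 ratio of 1.98 with a standard error of 0.66, PDK1 one of 2.19 with 0.81 and GBE1 one of 3.08 with 1.26, each with an adjusted p of 0.800 in edgeR. For shUTX against shRenilla 0 of 23112 genes were called, with 39 at an unadjusted p under 0.05 and 2 called by DESeq2, and the members' median was 0.31. For shJMJD3 against shUTX 0 of 24003 were called, with 1945 at an unadjusted p under 0.05 and 287 called by DESeq2, and the members' median was 1.03. PGAM1 was the 1 member that DESeq2 called, in this last comparison, with a log2 ratio of 3.17 and an adjusted p of 0.0100, against 0.546 in edgeR.

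Genes next to glycolysis were read from lists of related pathways, with shJMJD3 against shRenilla in CEM, where the shares over all measured genes were 21.0% for 1.5-fold higher and 25.3% for lower. PKM, the pyruvate kinase that completes glycolysis, had 1884 CPM with shJMJD3 and 578 with shRenilla, a log2 ratio of 1.98, and one of 0.53 in CUTLL1. Of 19 measured other isoforms and pyruvate genes, PKM among them, 6 were at least 1.5-fold higher and 2 lower. Hypoxia response genes outside glycolysis were higher in 20 of 22, with a median of 2.82. The largest ratios were those of the carbonic anhydrase CA9 (7.68), the collagen prolyl hydroxylase P4HA2 (7.39) and the adenylate kinase AK4 (6.81). In that order they had 36.9, 16.8 and 21.0 CPM with shJMJD3, but only 0.192, 0.096 and 0.202 with shRenilla. They passed the count minimum through the shJMJD3 column alone, so the size of their ratios is uncertain. Their intervals ran from 7.23 to 8.57, 6.84 to 8.79 and 6.36 to 7.67. The list of hypoxia-inducible factors and their regulators had 1 of 11 higher and 2 lower, both below the share of all genes, and a median of -0.16. EGLN1, the oxygen-sensing prolyl hydroxylase, stood at 2.40, the coactivators CREBBP and EP300 at -1.19 and -0.89, and HIF1A itself at -0.09 in CEM and 0.01 in CUTLL1. MYC had ratios of -0.18 and -0.61 in the same order.

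The branches off glycolysis are read against the same 21.0% and 25.3% of all measured genes in CEM. The pentose phosphate list had 5 of 10 genes higher by 1.5-fold or more and 1 lower, with a median of 0.67, led by the transketolase TKT (1.42). The tricarboxylic acid cycle list had 10 of 21 higher and 1 lower, with a median of 0.56, led by the succinate dehydrogenase SDHA (1.28) and the isocitrate dehydrogenase IDH2 (1.27). The list of gluconeogenesis and glycogen breakdown had 2 of 13 higher and 5 lower, with a median of -0.23. Its glycogen phosphorylases differed, with PYGL at 2.64, PYGB at -2.05 and PYGM at -1.80. The 4 members of glycogen synthesis described above had a median of 1.22.

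In the authors' deposited table for CEM, scaled to column totals, 26 of the 33 members were marked higher with shJMJD3 than with shRenilla and 5 lower at their p-value threshold of 0.001, against 17.3% and 37.1% of all genes with a p-value. The authors' deposited table for CUTLL1 marked 19 higher and 10 lower, against 11.1% and 29.1%. Those p-values compare the sequenced libraries and not the conditions.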

How the data were processed

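RNA was made into dUTP libraries after poly-A selection or ribosomal depletion and sequenced as 50-nt single reads, per the labels' protocols. The sources used here do not say which sample received which selection, nor how reads were counted or whether strand was used. CASAVA, TopHat and hg19 are named in the submitters' processing notes. Per the file headers, each deposited DEGseq table holds a raw read count per gene for a pair of hairpins. The authors scaled the deposited log2 ratios to column totals, and the deposited p-values are DEGseq's. No columns of per-sample values were left unused.

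Columns were taken as values pooled by the authors. Within a line, log2 ratios were scaled by TMM over the 2 columns compared (prior count 2) and read where either column had 50 counts, at 1.5-fold, with exact binomial 95% intervals. TMM over all 6 columns was computed as well, and both were seen before the pairwise form was kept. Scaling to column totals shifts the median of all genes by -0.14 in CUTLL1 and -0.27 in CEM for shJMJD3 against shRenilla, by -0.03 and -0.04 for shUTX against shRenilla, and by -0.33 and -0.23 for shJMJD3 against shUTX. Between the CUTLL1 control parts, TMM was computed over 4 CUTLL1 columns.

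Across lines, edgeR 4.0.16 (quasi-likelihood test, filterByExpr, line as a block, 2 residual degrees of freedom, Benjamini-Hochberg adjustment) was run in R 4.3.3, with DESeq2 1.42.0 as an alternative. Its p-values rest on the spread between lines, which stood in for replicates. The methods were tested on simulated data. Biotypes came from GENCODE release 29 and promoters from RefSeq on GRCh38.p14.

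Members and lists were chosen with earlier results of these data known. By rule, values in every column are given for members at least 2-fold apart with shJMJD3 against shRenilla in either line or 1.5-fold apart and of equal sign in CUTLL1 and CEM, and for HK1, GAPDH, LDHA, LDHB and PDHA1. Of neighbouring lists, up to 3 genes with the largest ratios are named, besides KDM6A, KDM6B, PKM, HIF1A and MYC.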

Additional observations from a re-analysis of the deposited data

Results flagged for a closer look

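With shJMJD3 against shUTX, 6 members stood at least 1.5-fold higher in CEM and at least 1.5-fold lower in CUTLL1. This opposite direction in the 2 lines brought them here, and the difference between lines was not tested, since each line has 1 pooled column per hairpin. PFKFB4, which activates phosphofructokinase through its product, had a log2 ratio of 5.28 in CEM and -1.21 in CUTLL1, 6.49 apart. ALDOC, an aldolase, had ratios of 3.08 and -0.89, 3.98 apart. The glucose transporter SLC2A1 had ratios of 2.86 and -0.78, 3.64 apart. The lactate exporter SLC16A3 had ratios of 2.68 and -0.75, 3.43 apart. PFKFB3 had ratios of 2.44 and -0.59, 3.02 apart, and the hexokinase HK1 had ratios of 2.04 and -0.75, 2.79 apart. In CUTLL1 each of the 6 had its highest CPM with shUTX. With shJMJD3 against shRenilla, 0 of 32 members were at least 1.5-fold lower in CUTLL1 and higher in CEM, where 89 of 15882 genes were. Each of the 6 was also lower in the remainder than in the smaller column of the CUTLL1 control, by log2 ratios from -3.66 for PFKFB4 to -0.70 for HK1. This was not particular to the 6, since 17 of 32 members were at least 1.5-fold lower there, against 22.7% of all measured genes. No control column enters the ratios of shJMJD3 to shUTX. The part of a similar difference between libraries in the opposite directions was not tested.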

How the results depend on the processing

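In CEM the counts of members higher with shJMJD3 kept within 1.5 times of the main counts under every scaling, prior count, level minimum and the 2-fold threshold, while in CUTLL1 they moved. With column totals, shJMJD3 against shRenilla had 3 members higher in CUTLL1 and 2 lower in CEM. With that scaling shJMJD3 against shUTX in CUTLL1 had 17 lower, against 21.3% of all genes, and a median of -0.72, against -0.31. At 2-fold, shJMJD3 against shRenilla had 1 higher and 0 lower in CUTLL1 and 0 lower in CEM. At that threshold shUTX against shRenilla had 2 higher in CUTLL1, against 0.657% of all genes, and 0 in CEM. For shJMJD3 against shUTX 1 was lower in CUTLL1 and 0 in CEM. The other counts at 2-fold and with column totals have no share of all genes beside them and show only how the members' counts moved. Against the remainder of the CUTLL1 control, shJMJD3 had 17 higher, 3 lower and a median of 0.61, and shUTX 18 higher, against 21.6% of all genes, 3 lower, against 24.6%, and a median of 0.94, against 0.05 over all genes. Against the larger control shUTX had 3 lower. Without GAPDH, TPI1 and PGAM1, a choice made after seeing the data, shJMJD3 against shUTX in CUTLL1 had 1 higher. TMM over all 6 columns, also added after seeing the data, moved no member count by more than 1.5 times.

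With a ratio of 1.5-fold or more before or after, signs turned in CUTLL1 for shJMJD3 against the remainder in PFKP (0.62), GAPDH (-0.59), TPI1 (-0.61) and PGAM1 (-0.89). They turned for shUTX in GAPDH, TPI1 and PGAM1, to -1.17, -0.99 and -2.64 against the larger control and to -2.25, -2.08 and -4.00 against the remainder. Within 1.5-fold on both sides, signs also turned for shJMJD3 in 5 members against the remainder (GYS1, HK1, PDHA1, PDHB and SLC16A1) and in 4 against the smaller control (PFKL, PGM1, SLC16A3 and SLC2A1). For shUTX they did so in 3 against the larger control (PDHB, PFKM and PGM2) and in the same 3 and SLC16A1 against the remainder. Scaling and prior counts turned at most 4 such signs in a comparison. The cause was not tested.

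Across lines, DESeq2 called 110, 2 and 287 genes for shJMJD3 against shRenilla, shUTX against shRenilla and shJMJD3 against shUTX, and 1 member in the last. For that comparison edgeR called 6 genes with column totals and 55 without its filter. Left to 1 line, the median ran from 0.33 without CEM to 2.50 without CUTLL1 for shJMJD3 against shRenilla, from 0.14 without CUTLL1 to 0.42 without CEM for shUTX against shRenilla, and from -0.39 without CEM to 2.34 without CUTLL1 for shJMJD3 against shUTX. No paired analysis was possible because the deposited columns carry no replicate numbers that could pair samples within a line. The fit across lines did pair the hairpins by line. With 1 pooled column per hairpin and line, the spread between cultures is unknown for every ratio, and PDK2 in CUTLL1 was under the count minimum.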
